A study of Mus musculus with 2 samples.

Results

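Tuft cells are a rare chemosensory cell type of the gut lining, and 10 genes that mark them or carry out their work were taken by symbol from total RNA sequencing of the intestine of mouse embryos. The genes were Pou2f3, Gfi1b, Gnat3, Gng13, Trpm5, Il25, Ptgs1, Dclk1, Avil and Sh2d6, that is 10 of 43346 gene identifiers in the deposited tables, of which 21474 are protein coding. They were chosen by name, not by level, and all 10 were found. There were 2 libraries, both of 1 group, called replicate 1 and replicate 2. Both were made from 10 ng of RNA longer than 200 nt from whole intestine of healthy B6NCrl embryos at embryonic day 16.5, with males and females pooled. Replicate 2 was pooled from 41 embryos, while for replicate 1 the pool size was not given in the sources used here. Per the labels the pools are different biosamples that carry a common donor identifier, no embryo carried a listed mutation or treatment, and with 1 group no test between conditions was possible.

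In the adult intestine, tuft cells sense succinate and other luminal compounds through G-protein-coupled receptors, and the signal passes through the cascade of taste cells: a G protein, phospholipase C beta, calcium release through the IP3 receptor, and the calcium-gated channel TRPM5. Activated tuft cells secrete the cytokine IL-25, which acts on group 2 innate lymphoid cells, and lipid mediators made by cyclooxygenases and lipoxygenase. The POU-domain factor POU2F3 is required for the lineage. In the mouse the cells become common only after birth, with weaning. Whole embryonic intestine shows which of the listed genes had transcripts before that time, but not in which cells.

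Levels are in TPM, a measure scaled to library size and corrected for transcript length, and detection means 1 TPM or more in each library. Expected counts are the estimated numbers of reads behind a level. Of the 10 tuft cell genes, 4 were detected: Ptgs1, Trpm5, Dclk1 and Gng13. By the same rule 62.0% of the 21474 protein-coding genes were detected, the share beside which the detected genes of each list below are to be read. The median over the 10 genes was 1.17 TPM in replicate 1 and 0.665 TPM in replicate 2, beside 4.46 and 4.44 TPM over all protein-coding genes. The cyclooxygenase gene Ptgs1 led the group, the lineage factor Pou2f3 stood well under 1 TPM, Il25 had 0 and 3 counts, and the gustducin gene Gnat3 had no count. Summed over the 10 genes, the libraries held 3403 and 3199 expected counts, and Ptgs1 alone gave 1825 and 1754 of them. In bulk tissue, fewer cells of a type and less RNA per cell cannot be told apart.

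The order of the levels was Ptgs1, Trpm5, Dclk1, Gng13, Gfi1b, Sh2d6, Pou2f3, Avil, Il25 and Gnat3. Neighbours in this order were called apart where the lower library of the higher gene exceeded the higher library of the lower one. Ptgs1 averaged 3.67 times Trpm5, Trpm5 averaged 1.71 times Dclk1, and Dclk1 averaged 2.49 times Gng13, and the libraries of these pairs did not overlap. Gng13 and Gfi1b overlapped, as did Pou2f3 and Avil, and Il25 and Gnat3 were both at 0 in replicate 1. Set among all protein-coding genes, Ptgs1 lay above 75.1% of them, Trpm5 above 55.2%, Dclk1 above 48.8%, Gng13 above 40.5% and Pou2f3 above 28.9%.

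**Figure D1:**
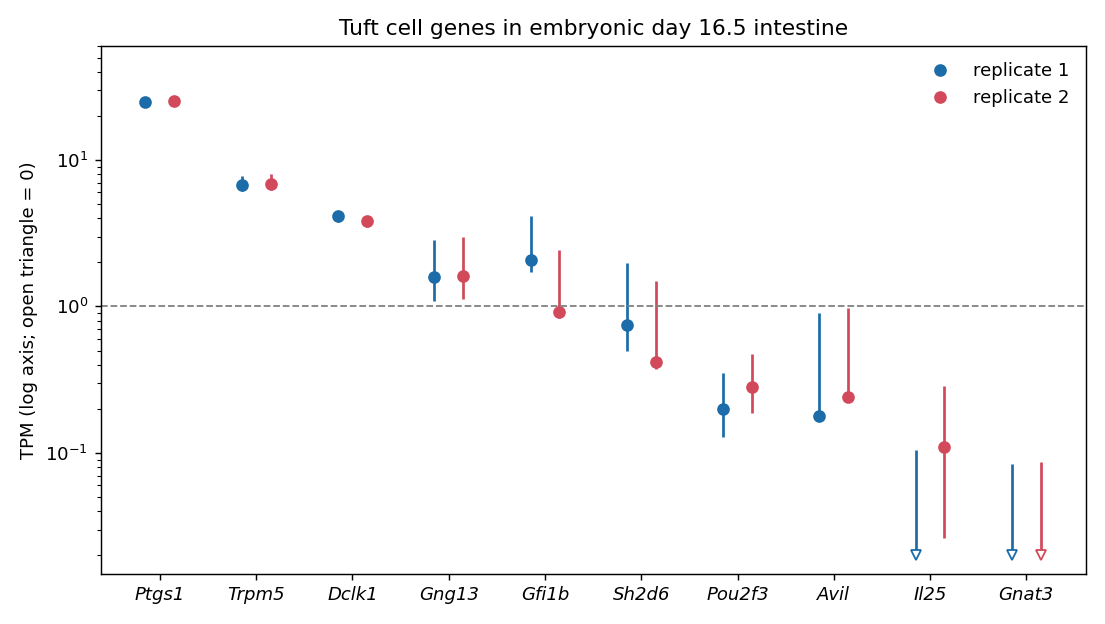
Level of each tuft cell gene in TPM (log axis) in replicate 1 (blue, left) and replicate 2 (red, right), in order of mean level, with vertical lines for the deposited intervals and open triangles for a level of 0, drawn at the bottom. Ptgs1 stands near 25 TPM in both libraries, the dashed line marks the 1 TPM used to call a gene detected, and the 2 points lie visibly apart for Gfi1b.

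The intestine of this age carried the markers of gut epithelium, and the libraries were deep. Expected counts over all features were 42040766 and 41480301, and 94.3% and 94.5% fell on protein-coding genes. All 11 epithelial identity genes were detected, with a median of 267 and 308 TPM, led by the lectin gene Lgals4, the claudin gene Cldn7 and the keratin gene Krt8, and with the intestinal factor Cdx2 lowest at 35.99 and 39.37 TPM. Markers of neighbouring organs were also present. All 8 pancreas genes were detected and summed to 2578 and 3568 TPM, and 3 of 8 stomach genes were detected and summed to 10.6 and 9.77 TPM, with Muc5ac and Gif, markers of the stomach lining, at 0 in both libraries. Across genes, log2(TPM + 1) of the libraries correlated at a Pearson's r of 0.997 over 19567 genes, a description in which genes are not independent replicates. A check for duplicated libraries gave a median chi-square of 2.24 per gene, where sampling noise alone gives 0.455, so both were kept as separate samples.

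The transcription factors of the group were low. Pou2f3 (ENSMUSG00000032015.11; mm10 chromosome 9, 43123939 to 43210369, minus strand), the POU-domain factor that tuft cells need to form, had 0.20 TPM in replicate 1 and 0.28 TPM in replicate 2. These levels rested on 15 and 20 expected counts, with exact Poisson 95% intervals of 8.4 to 24.7 and 12.2 to 30.9 counts. The transcript was therefore present above the floor of 3 counts in both libraries, but at a level far under that of the detected members. All of its counts were assigned to Pou2f3-201, which encodes 419 codons, and none to Pou2f3-202. By deposited posterior means, Pou2f3-202 held 16.6% and 31.2% of the level, so the division between the transcripts depends on which estimate is read. Intervals and floors here cover counting error only, because reads that carry no molecular identifier cannot be taken as independent molecules.

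Gfi1b (ENSMUSG00000026815.10; chromosome 2, 28609450 to 28621982, minus strand), a zinc-finger repressor that marks tuft cells and is also required for red blood cells and platelets, had 2.06 TPM in replicate 1 and 0.91 TPM in replicate 2. It averaged 1.49 ± 0.813 TPM (SD, n = 2) and was the member whose libraries lay farthest apart among those with a mean count of at least 10. The counts were 81 and 43, a ratio of 1.86 after scaling for library size, with an exact binomial 95% interval of 1.27 to 2.76. On the scale of log2(TPM + 0.1) the difference of replicate 1 over replicate 2 was 1.10. Of the 8 members with a mean count of at least 10, Gfi1b alone passed 2-fold between the libraries, while 1.72% of 15500 protein-coding genes with that count passed it in either direction, 0.884% passed it with replicate 1 higher, and 5.97% of 2615 genes with a mean count of 10 to 100 passed it in either direction. The call was lost with a pseudocount of 1 (log2 0.68), with posterior mean TPM (log2 0.84), with counts scaled by TMM (log2 0.85) or by DESeq2 size factors (log2 0.86) and over its complete coding transcripts alone (log2 0.78). The coding transcripts Gfi1b-201 and Gfi1b-204 together held 1.64 and 0.91 TPM, and 2 short non-coding transcripts added 0.42 TPM in replicate 1 and nothing in replicate 2.

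Most markers of red blood cell precursors and platelets were higher in replicate 1, as Gfi1b was. Of 12 such genes, 10 were higher in replicate 1, in TPM as in counts scaled by TMM or DESeq2 size factors, while of the 15500 protein-coding genes with a mean count of at least 10 the shares higher in replicate 1 were 52.5%, 48.0% and 50.0% on these 3 scales. Lists of other tissues also leaned to 1 pool. Of 8 pancreas genes, 7 were higher in replicate 2 and 1 in replicate 1 on all 3 scales. In TPM, 9 of 11 epithelial identity genes and 6 of 8 macrophage genes were higher in replicate 2, and 2 of each list in replicate 1. Of the 12 blood genes, 9 were detected, and their summed level was 80.33 TPM in replicate 1 and 67.29 TPM in replicate 2. The blood factor Gata1 had 2.12 and 0.79 TPM, and the erythroid factor Klf1 had 8.81 and 4.15 TPM. Gata1 and Klf1 passed 2-fold. The platelet chemokine gene Pf4, the most abundant of the list, went slightly the other way at 38.87 and 40.25 TPM, the lowest, Tal1, had 0.59 and 0.33 TPM, and no gene of the list was at 0. The part of these cells in the Gfi1b level was not tested.

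**Figure D2:**
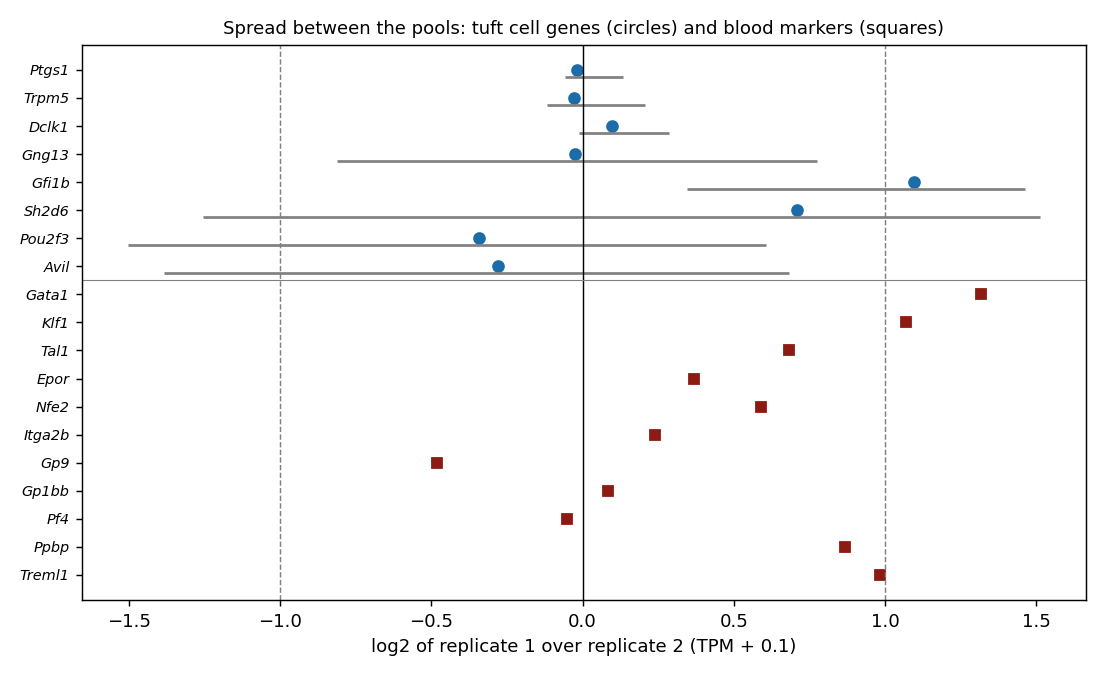
Log2 of replicate 1 over replicate 2, on TPM + 0.1, for the 8 tuft cell genes with a mean count of at least 10 (circles, with grey lines for the exact 95% interval of the count ratio) and for 11 of the 12 markers of red blood cell precursors and platelets (squares). Dashed lines mark 2-fold, which Gfi1b, Gata1 and Klf1 exceed with replicate 1 higher.

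Among the 3 members of the taste cascade, Trpm5 had a higher gene level than Gng13 and Gnat3, but none of it was assigned to its complete coding transcript, over which Gng13 was the higher of the pair. Gnat3 (ENSMUSG00000028777.7; chromosome 5, 17962549 to 18019834, plus strand) encodes gustducin, the G-protein alpha subunit of taste cells. It had 0 counts in both libraries, and the floor of 3 counts corresponds to 0.0857 and 0.0882 TPM, so any level above that was not seen at this depth. Gng13 (ENSMUSG00000025739.9; chromosome 17, 25717171 to 25719406, plus strand), the gamma subunit that pairs with gustducin and is also found in olfactory and retinal cells, had 1.59 and 1.62 TPM from 29.03 and 28.74 expected counts. Its 3′ part shares 399 of the 719 bases of Gng13-202 with Chtf18 on the opposite strand, a gene of the replication clamp loader at 20.1 and 18.05 TPM. Strandedness was not given in the sources used here, so reads of Gng13 and Chtf18 may not be separable, and the Gng13 level is uncertain to that extent.

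Trpm5 (ENSMUSG00000009246.10; chromosome 7, 143069153 to 143094642, minus strand), the cation channel that calcium opens in taste and tuft cells, had 6.76 and 6.89 TPM and averaged 6.83 ± 0.0919 TPM (SD, n = 2). The level rested on 638.59 and 612.5 expected counts, and the count ratio of the libraries was 1.03, with an interval of 0.921 to 1.15. These reads were not assigned to the transcript that encodes the whole channel. Trpm5-201, the only complete coding transcript, with 25 exons and 1158 codons, had 0 counts in both libraries, with deposited intervals reaching up to 0.219 and 0.245 TPM. Trpm5-207, annotated as a retained intron transcript, held 3.90 and 4.06 TPM, which was 57.63% and 58.97% of the gene's level, and Trpm5-205, of the same class, held 1.27 and 1.16 TPM. Together these transcripts took 92.1% and 94.3% of the gene's counts.

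Trpm5-207 has 21 exons that match 21 of the 25 exons of Trpm5-201. It lacks the first 4 exons, which hold 558 bases of Trpm5-201, and begins 172 bases inside the intron before exon 5, 7428 bases downstream of the start of Trpm5-201. It also runs 260 bases past the 3′ end of Trpm5-201 and keeps no intron whole. Trpm5-205 begins 87 bases inside the same intron, keeps 1 intron whole and ends 389 bases short of that 3′ end. The 2 transcripts that start at the upstream site, Trpm5-201 and the decay-targeted Trpm5-208, took 1.47% and 0.785% of the gene's counts. Among 9668 detected protein-coding genes with at least 2 transcripts, the most abundant transcript was a retained intron in both libraries for 2.73%, and complete coding transcripts were at 0 TPM in both libraries for 0.269%. These 2 background shares were chosen after the Trpm5 values were seen. The tables hold no reads per exon, so whether reads of the first exons, the intron or the 3′ end set the division between these transcripts was not tested.

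Trpm5-201 and Trpm5-207 differ in their first exons, just before exon 5 and at their 3′ ends. The bases around the start of exon 5 are shown on the minus strand, from the GENCODE M21 transcripts on GRCm38. The lower-case bases are the start of exon 5 (chr7:143087013-143087042), which both share. The capitals are the end of exon 4 (chr7:143087701-143087730) in the channel transcript and the end of intron 4 (chr7:143087043-143087072) in the abundant one.
Trpm5-201: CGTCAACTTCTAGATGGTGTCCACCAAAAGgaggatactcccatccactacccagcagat
Trpm5-207: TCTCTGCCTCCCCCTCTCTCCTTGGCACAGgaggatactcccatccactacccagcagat
The intron bases are rich in pyrimidines and end in AG, as the ends of introns do, and Trpm5-207 reads through them into exon 5.

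The incomplete coding transcripts Trpm5-204 and Trpm5-206 held 0.31 and 0.66 TPM, and 0.80 and 0.70 TPM. Trpm5-206 shares 217 of its 726 bases with Tssc4 on the opposite strand, an imprinted-domain gene at 68.29 and 62.24 TPM. Neither Trpm5-205 nor Trpm5-207 overlaps an exon of another gene in the annotation. Trpm5 is also known from pancreatic beta cells, and the pancreas genes of the libraries included the insulin gene Ins2 at 201.6 and 263.1 TPM and the protease genes Ctrb1, Cela2a and Cpa1 as the highest, with the pancreatic factor Pdx1 lowest at 2.35 and 1.80 TPM. None of the 8 pancreas genes was at 0. The part of pancreas cells in the Trpm5 level was not tested.

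**Figure D3:**
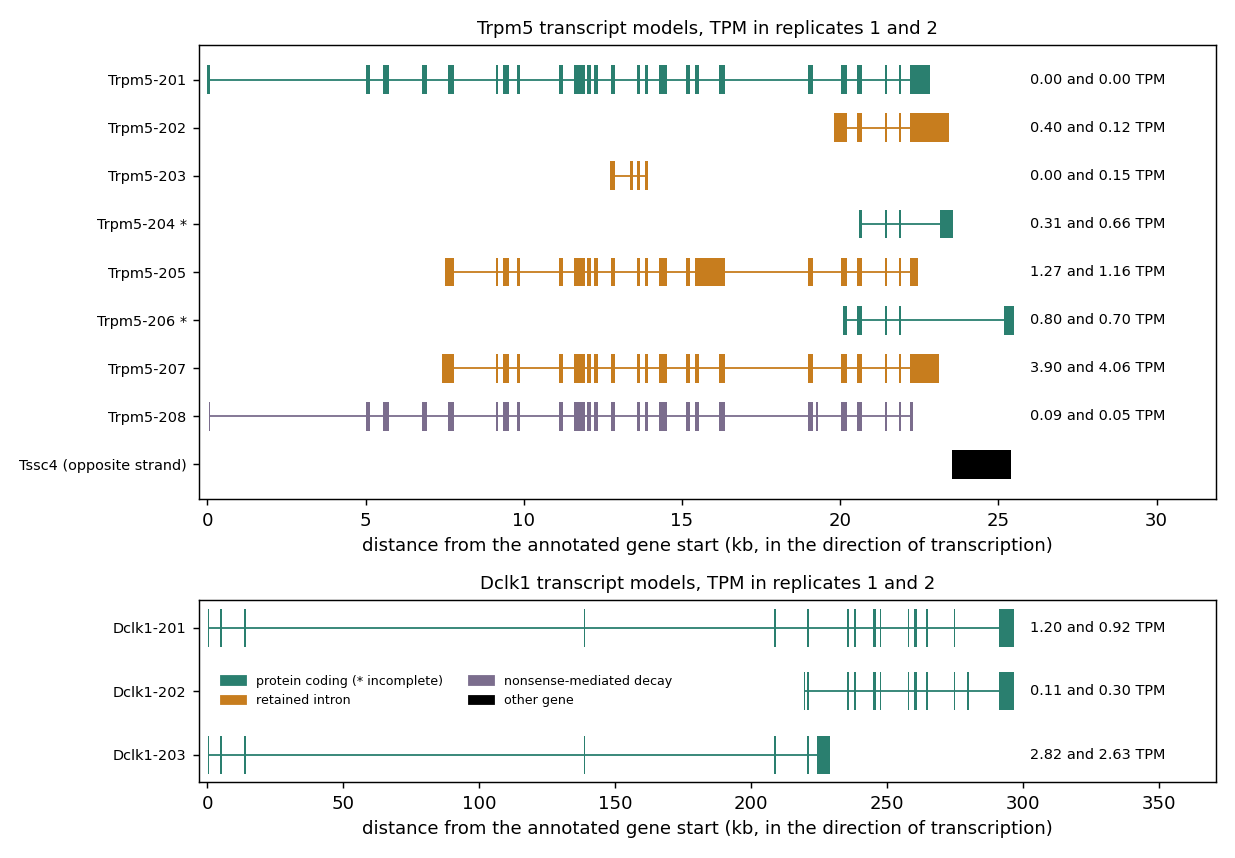
Transcript models of Trpm5 (top) and Dclk1 (bottom), with boxes for exons, distance from the annotated gene start in kb in the direction of transcription, and the level in replicates 1 and 2 at the right. The abundant Trpm5-207 and Trpm5-205 (orange) start inside the gene, Trpm5-201 (green, top row) has 0 TPM, and the abundant Dclk1-203 ends before the exons that encode the kinase.

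The cascade's other components were described with a list of 12 partners. Of these, 6 were detected, beside 62.0% of all protein-coding genes, with a median of 1.56 and 1.74 TPM. The highest were the G-protein beta subunit Gnb1 at 256 and 321 TPM, the TRPM5-related channel Trpm4 at 15.14 and 17.32 TPM, and the IP3 receptor Itpr3, the receptor type of taste cells, at 10.3 and 14.06 TPM. The parts most particular to taste and tuft cells were lower. The phospholipase gene Plcb2 had 0.84 and 1.14 TPM, the beta subunit Gnb3 had 1.5 and 0.6 TPM, and the regulator Rgs13 had 0.05 TPM in each library. The voltage-gated channel gene Calhm1 was lowest at 0.04 TPM in each, and no partner was at 0.

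Receptors that feed the cascade were mostly under 1 TPM, with a median of 0.02 and 0.04 TPM. Of the 12 receptors 1 was detected, beside 62.0% of all protein-coding genes. The short-chain fatty acid receptor Ffar2, which is also expressed by immune and endocrine cells, had 9.96 and 9.30 TPM, and Ffar3 had 0.67 TPM in each library. The succinate receptor Sucnr1 had 0.60 and 0.39 TPM from 26 and 10 counts. The taste receptors Tas1r1 (0.19 and 0.21 TPM) and Tas1r3 (0.27 and 0.24 TPM) had 22 and 27 counts and 27 and 23 counts, above the floor of 3 counts. The bitter receptors Tas2r126, Tas2r135 and Tas2r143 had 0 TPM in both libraries.

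Within its families, Trpm5 was the third of 8 TRPM channels, after Trpm7 at 31.9 and 27.85 TPM and Trpm4, and these 3 were the only ones detected, with Trpm8 at 0. Gng13 was the lowest of 11 detected gamma subunits out of 12, far below Gng5 at 925 and 880 TPM and Gng12 at 139 and 156 TPM. Gng10, Gng11, Gng2, Gngt2, Gng3, Gng8, Gng7 and Gng4 lay between 1.78 and 73.87 TPM. Gnat3 was the only member at 0 among 8 alpha subunits of its class, of which Gnai2 had 257 and 265 TPM, Gnai3 had 145 and 144 TPM and 6 were detected, with Gnai1, Gnao1, Gnaz and Gnat2 at 1.62 to 14.7 TPM.

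Of the mediators, the prostaglandin enzyme was abundant and the cytokine was not. Ptgs1 (ENSMUSG00000047250.9; chromosome 2, 36230426 to 36252272, plus strand) encodes cyclooxygenase 1, which makes the prostaglandin precursor and is present in many cell types besides tuft cells, platelets and stromal cells among them. It had 24.85 and 25.19 TPM and averaged 25.02 ± 0.240 TPM (SD, n = 2), with a count ratio of 1.03 and an interval of 0.962 to 1.10. The full-length coding transcript Ptgs1-201, of 602 codons, held 21.82 and 21.47 TPM, or 87.83% and 85.25% of the gene's level. Retained intron transcripts held 1.93 and 2.00 TPM. The TEC gene Gm43621 shares 148 exon bases with Ptgs1 on the opposite strand, and its own level was not analysed here.

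The enzymes around cyclooxygenase 1 were widely present. All 12 eicosanoid genes were detected, beside 62.0% of all protein-coding genes, with a median of 5.64 and 5.27 TPM. The prostaglandin E synthases Ptges3 (343 and 317 TPM) and Ptges2 (42.4 and 41.7 TPM) and the phospholipase A2 gene Pla2g4a (28.0 and 25.6 TPM), which releases arachidonic acid, were highest. The inducible cyclooxygenase Ptgs2 was lowest, at 1.05 and 1.18 TPM, so that Ptgs1 exceeded it in every library. The genes of this list that tuft cells are best known for were Hpgds, the prostaglandin D synthase, at 7.22 and 8.36 TPM, the leukotriene genes Alox5ap at 8.44 and 6.69 TPM and Alox5 at 1.68 and 1.74 TPM.

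Markers of other cell types known to carry Ptgs1 were present in the same libraries. All 8 smooth muscle and mesothelium genes were detected and summed to 4248 and 4112 TPM, led by Actg2, Acta2 and Myl9, with the mesothelial gene Lrrn4 lowest at 6.73 and 8.52 TPM. All 8 macrophage genes were detected and summed to 192 and 202 TPM, led by the complement genes C1qb, C1qa and C1qc, with Mrc1 lowest at 3.95 and 4.33 TPM. Mast cell genes were lower, with 4 of 9 detected and a sum of 18.5 and 15.2 TPM. Cpa3 led them at 5.11 and 4.41 TPM, ahead of Cma1 and Tpsb2, and the receptor gene Fcer1a was lowest at 0.08 and 0.12 TPM. No gene of these 3 lists was at 0, and the part of these cells in the Ptgs1 level was not tested.

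Il25 (ENSMUSG00000040770.5; chromosome 14, 54932695 to 54935837, plus strand), the cytokine by which tuft cells call on lymphoid cells, had 0 counts in replicate 1 and 3 counts in replicate 2. The single transcript's level in replicate 2 was 0.11 TPM, beside a floor of 0.109 TPM, and the floor in replicate 1 was 0.106 TPM. Both libraries were thus at or under the floor. Of the 6 genes of its interleukin 17 family, Il17b alone was detected, at 7.54 and 6.99 TPM. Il17d had 0.42 TPM in replicate 1 and 3.46 TPM in replicate 2, and Il17a had 0 TPM in both.

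Of 15 genes of the circuit that IL-25 acts on, 10 were detected, a share near the 62.0% of all protein-coding genes, with a median of 3.24 and 2.51 TPM. The signal transducer Stat6 had 40.2 and 42.2 TPM, the receptor subunit Il13ra1 had 20.73 TPM in each library, and the epithelial and stromal alarmin Il33 had 14.86 and 13.5 TPM. The shared receptor Il17ra had 5.29 and 5.62 TPM, whereas the IL-25-binding subunit Il17rb had 0.47 and 0.54 TPM. The effector cytokines Il5 and Il13 had 0 TPM in both libraries.

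Dclk1 (ENSMUSG00000027797.11; chromosome 3, 55242364 to 55539068, plus strand) encodes a kinase with doublecortin domains that bind microtubules, and it marks tuft cells in the adult mouse gut but is also a gene of neurons. It had 4.13 and 3.85 TPM from 788 and 708 counts and averaged 3.99 ± 0.198 TPM (SD, n = 2), with a count ratio of 1.10 and an interval of 0.992 to 1.22. Most of this level was assigned to a transcript without the kinase. Dclk1-203, with 7 exons and 363 codons, held 2.82 and 2.63 TPM, or 68.26% and 68.35% of the gene's level, from 491.78 and 445.5 counts. Of its 6025 bases, 4744 lie outside the exons of Dclk1-201, within an intron of that transcript. The tables hold no reads per exon, so the part of unspliced RNA in the Dclk1-203 level was not tested. The full-length Dclk1-201, with 17 exons and 756 codons, held 1.20 and 0.92 TPM. Dclk1-202, with 14 exons and 422 codons, starts 219394 bases downstream of the gene start and carries the kinase without the doublecortin domains, and it held 0.11 and 0.30 TPM. Transcripts from the upstream start took 97.28% and 92.13% of the level, and transcripts with the kinase part held 1.31 and 1.22 TPM.

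Dclk1-201 and Dclk1-203 share 6 exons and 1035 coding bases, after which they part, and the bases around that point are shown on the plus strand of GRCm38, all within coding sequence. Lower case marks the end of the last shared exon. The capitals mark the next exon of each, at chr3:55477805-55477834 for the kinase transcript and at chr3:55466573-55466602 for the shorter one.
Dclk1-201: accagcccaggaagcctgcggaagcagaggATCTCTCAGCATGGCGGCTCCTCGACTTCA
Dclk1-203: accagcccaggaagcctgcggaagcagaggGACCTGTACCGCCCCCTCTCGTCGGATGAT
As annotated, Dclk1-203 joins the doublecortin exons to an alternative end upstream of the exons that encode the kinase.

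Since the shares above differ by start, the 250 bases before each of 2 RefSeq starts of Dclk1 are shown (GRCm38.p6, plus strand). These RefSeq starts lie 0 and 219364 bases from the gene start. They are not the exact starts of the transcripts above, which lie 162 bases (Dclk1-201 and Dclk1-203) and 219394 bases (Dclk1-202) from it. The upstream window is chr3:55242114-55242363, and the internal window, which lies inside the gene, is chr3:55461478-55461727.
Dclk1 upstream start: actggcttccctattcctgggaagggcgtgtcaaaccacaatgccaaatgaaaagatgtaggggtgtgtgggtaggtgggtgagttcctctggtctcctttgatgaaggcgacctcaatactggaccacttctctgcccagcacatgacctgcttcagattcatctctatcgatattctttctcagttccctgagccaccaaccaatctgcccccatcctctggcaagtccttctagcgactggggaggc
Dclk1 internal start: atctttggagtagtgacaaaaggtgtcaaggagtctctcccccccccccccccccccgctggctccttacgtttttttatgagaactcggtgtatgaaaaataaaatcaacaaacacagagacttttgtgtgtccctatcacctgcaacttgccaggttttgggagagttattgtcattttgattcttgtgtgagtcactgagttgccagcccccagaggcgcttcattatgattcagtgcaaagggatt

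Neurons of the gut wall were present in both libraries. Of 10 neuron genes, 9 were detected, the sum was 301.5 TPM in replicate 1 and 268.65 TPM in replicate 2, and 9 of 10 were higher in replicate 1 in TPM and under both count scalings, beside 52.5%, 48.0% and 50.0% of protein-coding genes with a mean count of at least 10. Pancreas, epithelial identity and macrophage genes were mostly higher in replicate 2, as given above. Dclk1 itself was higher in replicate 1, at 4.13 and 3.85 TPM, and the interval of its count ratio, 0.992 to 1.22, includes 1. Uchl1, Gap43 and Stmn2 led the list, Elavl3 was lowest at 1.11 and 0.94 TPM, and no gene was at 0. Interstitial cell genes were also present, with 5 of 5 detected and a sum of 76.8 and 78.5 TPM. Of these, Etv1 had 24.58 and 23.67 TPM, Pdgfra had 21.5 and 23.41 TPM, Ano1 had 16.75 and 17.18 TPM, Kit had 12.67 and 13.12 TPM and Prkcq had 1.29 and 1.12 TPM. The part of these cells in the Dclk1 level was not tested. In its family, Dclk1 stood beside Dclk2 at 3.55 and 3.95 TPM and the neuronal Dcx at 1.78 and 1.54 TPM, above Dclk3 at 0.61 and 0.47 TPM, and the libraries of Dclk1 and Dclk2 overlapped.

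Avil (ENSMUSG00000025432.7; chromosome 10, 127000709 to 127020994, plus strand) encodes advillin, an actin-binding protein of the villin family found in tuft cells and peripheral sensory neurons. It had 0.18 and 0.24 TPM from 15.53 and 20 counts, on the order of Pou2f3. The deposited posterior means were 0.50 and 0.55 TPM, so the Avil level depends on which estimate is read. Avil shares 165 bases of its exons with Tsfm on the opposite strand, a mitochondrial translation factor gene at 85.97 and 73.02 TPM, so some of these few reads may not be separable. The other 7 genes of the villin family were all detected, with Vil1, the villin of the brush border, at 177 and 208 TPM, Gsn at 150.4 and 148.7 TPM, and Flii, Scin, Svil, Capg and Vill at 11.74 to 69.62 TPM.

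Sh2d6 (ENSMUSG00000052631.10; chromosome 6, 72513641 to 72521707, minus strand), a gene of an SH2-domain protein that marks tuft cells, had 0.75 and 0.42 TPM. The counts behind these levels were 11 and 10, so the difference in TPM was not one of counts, whose ratio was 1.09 with an interval of 0.419 to 2.85. The average transcript length assigned to the gene was 597 bases in replicate 1 and 936 bases in replicate 2. The short transcript Sh2d6-202 took 67.1% of the level in replicate 1 and 11.2% in replicate 2, on 2.62 and 0.24 counts. It was quantified at 276 bases, whereas its GENCODE M21 model, classed as decay-targeted, has 1109 bases, so that class may not describe what was quantified.

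A search for the octamer, the element that POU2F factors bind, was made in the RefSeq promoters, windows of 300 bases with 250 before and 50 after each start, on both strands. The octamer ATGCAAAT occurred in 1.74% of 32851 promoters and in none of the 10 promoters listed for the members. Of the members, 8 were in the table, and Pou2f3 and Il25 were not. Its first 7 letters, ATGCAAA, occurred in 4.63% of all promoters and in 1 member promoter, that of Avil, with matches starting 15 bases before the start on the same strand and 115 bases before it as TTTGCAT on the opposite strand. The matches overlap no octamer. The 250 bases before the Avil start (GRCm38.p6, chr10:127000459-127000708, plus strand) are shown with the matches in capitals.
Avil: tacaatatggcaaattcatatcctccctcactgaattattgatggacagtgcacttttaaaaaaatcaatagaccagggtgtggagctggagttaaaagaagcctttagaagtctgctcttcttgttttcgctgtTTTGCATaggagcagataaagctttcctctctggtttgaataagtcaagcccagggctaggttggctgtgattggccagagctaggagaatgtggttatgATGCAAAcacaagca
A match describes letters only, and Avil was among the lowest genes of the group.

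Relatives and partners of Pou2f3 and factors of epithelial fate were partly detected. Of 13 genes measured, 6 were detected, beside 62.0% of all protein-coding genes, with a median of 0.88 and 1.04 TPM. The Notch target Hes1 had 22.2 and 30.8 TPM, the progenitor factor Sox9 had 21.8 and 22.6 TPM, and the stem cell factor Ascl2 had 10.65 and 9.27 TPM. The ubiquitous relative Pou2f1 had 7.15 and 6.99 TPM, far above Pou2f3. By mean level Pou2af1 was lowest, at 0.08 and 0.06 TPM, next to 1810046K07Rik at 0.06 and 0.15 TPM. No gene of the list was at 0, and Gm684 had no match in the annotation.

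A list of 22 further tuft cell genes had 11 detected, with a median of 1.40 and 1.09 TPM. The highest were the phosphatase gene Ptpn6 at 17.39 and 19.14 TPM, Kctd12 at 8.17 and 7.61 TPM and Hpgds, and Rgs13 was lowest. Ptpn6, Ptprc, Vav1 and Inpp5d of this list are also genes of blood cells, and the macrophage genes given above were present. The list shares Hpgds and Alox5ap with the eicosanoid genes and Plcb2, Gnb3 and Rgs13 with the cascade. Across the 6 pathway lists, 44 of 76 distinct genes were detected, as against 62.0% of all protein-coding genes.

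Set beside other secretory lineages of the gut, the tuft cell genes had a lower median than the goblet and enteroendocrine genes in both libraries. The 10 members had a median of 1.17 and 0.665 TPM, against 77.6 and 98.9 TPM for 10 goblet cell genes, 22.5 and 24.8 TPM for 14 enteroendocrine genes and 1.12 and 1.66 TPM for 9 Paneth cell genes. Of the goblet genes 9 were detected, led by Tff3, Spink4 and Agr2, with Atoh1 at 8.58 and 8.96 TPM and Retnlb at 0. All 14 enteroendocrine genes were detected, led by Sct, Ghrl and Gcg, with Pax4 lowest at 1.41 and 2.14 TPM. Of the Paneth genes 5 were detected, led by Defa24, Defa17 and Lyz1, and Pla2g2a, Defa21 and Defa22 were at 0. The lists hold hormones, mucus proteins and defensins with their regulators, so their medians describe the chosen genes and were not tested against each other.

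**Figure D4:**
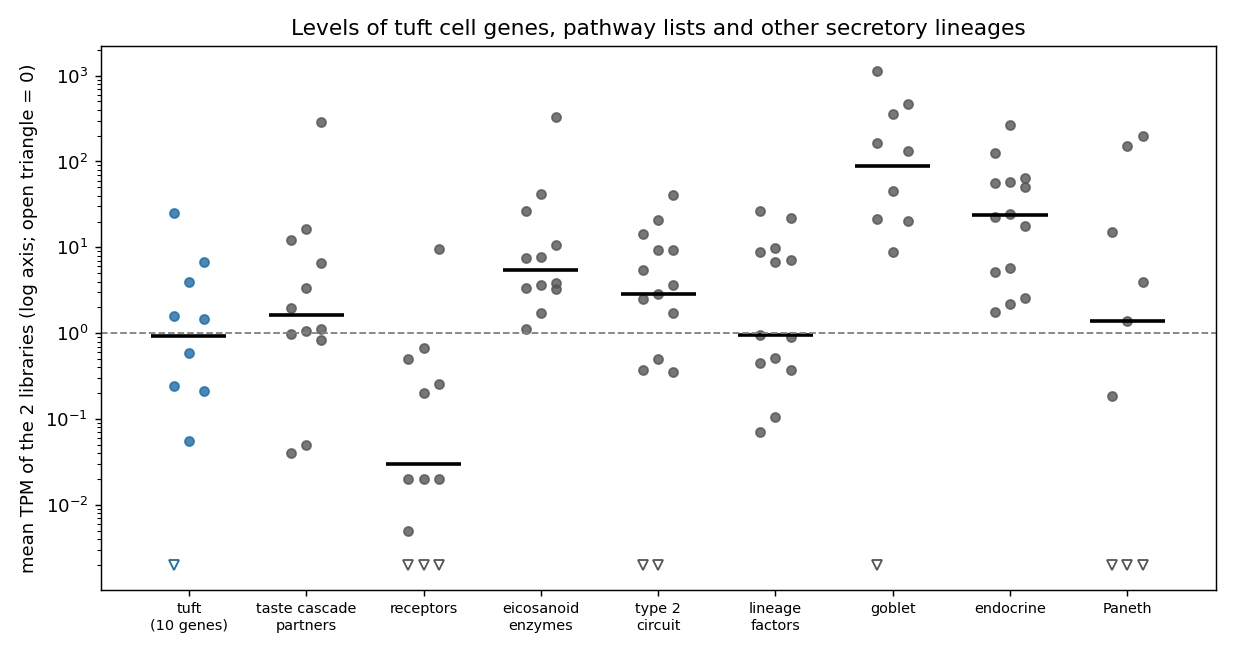
Mean level of the 2 libraries in TPM (log axis) for each gene of the tuft cell group (blue, left), 5 pathway lists and 3 other secretory lineages, with open triangles for genes at 0 and black bars for the mean over libraries of each list's median. The tuft cell bar stands at 0.918 TPM, below the bars of the goblet and endocrine genes, and the dashed line marks 1 TPM.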

How the data were processed

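Each library came with a gene and a transcript table that the authors had made before deposit. Per the accompanying notes, deposited with them, the reference was GENCODE M4 on mm10, with an aligner and quantifier not given in the sources used here. Expected counts, as deposited, estimate how many reads belong to each feature and carry no normalisation. TPM, as deposited, is corrected for effective length and scaled to a common total, and the deposited FPKM is corrected for length and for the reads assigned. The deposited percent of a transcript is its part of the gene's TPM. The deposited interval bounds of TPM were treated as a score, since the files name no level for them.

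GENCODE M21 held 42462 of the 43346 gene identifiers (98.0%), and it gave symbols, types and mm10 coordinates, and 233 of 234 listed symbols were found. Of 36 member transcripts, 27 had the same length in both releases, so coordinates and exons describe the M21 models. Identifiers outside M21 held 0.159% and 0.155% of counts. Features that name no gene, spike-ins among them, held 1.81% and 1.74% of counts and stayed out of gene totals.

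Detection required 1 TPM or more in each library. Ratios between libraries used TPM + 0.1 and a mean count of at least 10. Count intervals are exact (95%) and the floor is 3 counts. No significance test was run, since replicates of 1 group allow none, and nothing in the labels says that the pools shared no parents. The members and gene lists were chosen with earlier results of these data known. Named were all members, the 3 highest and the lowest of each list, genes at 0, all genes of short lists, family relatives above 1 TPM and genes overlapping a member, and genes named besides these were chosen after their values were seen. A gene that this rule takes in is not reported here. The Trpm5 exon comparison was added after its values were seen. Alternatives were other thresholds, pseudocounts and estimates, scaling by edgeR 4.0.16 (TMM) and DESeq2 1.42.0 in R 4.3.3 on counts rounded to whole numbers, and each library left out. Complete coding transcripts alone, shares of counts and the direction of marker lists under count scaling, with its share over all genes, were added after the data were seen. The rest was computed in Python 3.11.15 (pandas 2.3.3, numpy 2.4.6, scipy 1.17.1, matplotlib 3.10.9).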

Additional observations from a re-analysis of the deposited data

How the results depend on the processing

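The number of tuft cell genes detected was 4, and it became 8 when 10 expected counts in both libraries replaced the TPM threshold, 5 at a TPM of 0.5, 3 at a TPM of 2, 4 with FPKM, 5 with posterior means and 3 over complete coding transcripts, where Trpm5 fell to 0. With 1 library left out it was 4 to 5. The median of the 10 genes, 0.918 TPM, was 1.38 with posterior means and 1.55 over members with a mean count of at least 10, and 0.665 to 1.17 with 1 library left out. The count of members past 2-fold between libraries, 1, became 0 with a pseudocount of 1, with posterior means, with TMM, with DESeq2 size factors and over complete coding transcripts, and 2 with no filter on counts, which adds Il25 at 0 and 3 counts. The share of protein-coding genes past 2-fold was 0.574% with a pseudocount of 1, 2.53% with a pseudocount of 0.01, 2.31% with TMM and 2.30% with DESeq2 size factors. Computed as a share of expected counts, which does not correct for length, Dclk1-203 took 62.7%, Trpm5-207 71.9% and Ptgs1-201 97.1%, against shares of TPM of 68.3%, 58.3% and 86.5%. With posterior means Trpm5-207 took 53.2% and Ptgs1-201 84.1%. With 1 library left out these shares were 68.26% to 68.35%, 57.63% to 58.97% and 85.25% to 87.83%. The pathway lists' 44 detected genes became 53 at a TPM of 0.5, 47 with posterior means and 46 to 47 with 1 library left out. Of 20 member levels with posterior means or rescaled to protein-coding genes, 11 moved by less than 1 SD and 9 by more, and of 96 list counts 92 stayed within 1.5 times. No called value changed direction under these alternatives, whereas the log2 ratios of Trpm5 and Ptgs1 between libraries, both close to 0, changed sign under some of them. No paired analysis was possible because the series holds a single group. Depth limits the genes with about 20 counts or fewer: Pou2f3, Avil, Sh2d6, Il25 and Gnat3. The cause of these differences was not tested.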
